A study of Mus musculus with 4 samples.

Results

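Progenitor cells from mouse fetal liver that H-RasV12 had transformed were set against non-transformed cells of the same kind, by the transcript signals of single genes and of gene families. Both cultures were p53-/-, so the non-transformed cells also lacked p53, a transcription factor that restrains growth and is often lost in liver cancer. Each culture was measured on 1 single-colour Affymetrix expression array, and these are 2 of the 4 arrays of the study, whose other cultures carried myr-Akt or c-Myc. Per the labels, the DMEM:F12 medium held EGF at 20 ng/ml, HGF at 50 ng/ml, dexamethasone, nicotinic acid, an ITS supplement and fetal bovine serum at 10%, and 1 µg of RNA went into each biotin-labelled cRNA. The labels used here do not say how the oncogene was introduced or whether a culture was 1 clone.

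H-Ras is a small GTPase that passes signals from growth factor receptors to the RAF-MEK-ERK kinases, to PI3K and to RalGDS, and the V12 form is held in its active, GTP-bound state. ERK then induces transcription factors, growth factors of the EGF family and, as a brake, its own phosphatases and Sprouty proteins. Fetal liver progenitors, or hepatoblasts, make both hepatocytes and bile duct cells, and they lie against mesothelial and stellate cells in the developing liver.

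Genes were included if a probe set assigned to 1 gene symbol exceeded the signal floor on at least 1 of both arrays. The floor was a signal of 100.001, which is 20% of the trimmed mean of every array, and lower signals were raised to it before log2 was taken. Of 18193 genes with such a probe set, 10471 were measured, 9935 of them on the H-RasV12 array and 10221 on the non-transformed array. Each gene was read from its brightest probe set, by the mean of both arrays. With 1 array a side there was no spread between replicates, so no difference below carries an error or a p-value. Genes that differed by 2-fold or more are called higher or lower, and where 1 side was at the floor the fold is a bound and carries the words at least. Values given as differences are on the log2 scale, H-RasV12 minus non-transformed. Signals of different genes come from different probes, so they are not set against each other, and brightness served only to choose which members to name.

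Across all measured genes the median log2 difference, H-RasV12 minus non-transformed, was 0.01, and 70.9% of genes lay within 0.5 of 0. A difference of 2-fold or more was seen in 222 genes that were higher (2.12%) and 671 that were lower (6.41%) in H-RasV12 cells. These shares are the background for every count of list members below. The lower genes also went further. At 4-fold there were 25 higher and 152 lower genes (1.69% of all genes, counting both directions), at 8-fold 0 higher and 37 lower, and at 16-fold 0 higher and 8 lower. Ratios of 5′ to 3′ signal, a measure of RNA integrity, were close: 0.907 in H-RasV12 cells and 0.889 in non-transformed cells for beta-actin, and 1.29 in H-RasV12 cells and 1.24 in non-transformed cells for Gapdh. The 18 hybridisation controls above the floor differed by -0.24 to 0.09, and the 19 poly-A controls by -0.39 to 0.57.

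**Figure D1:**
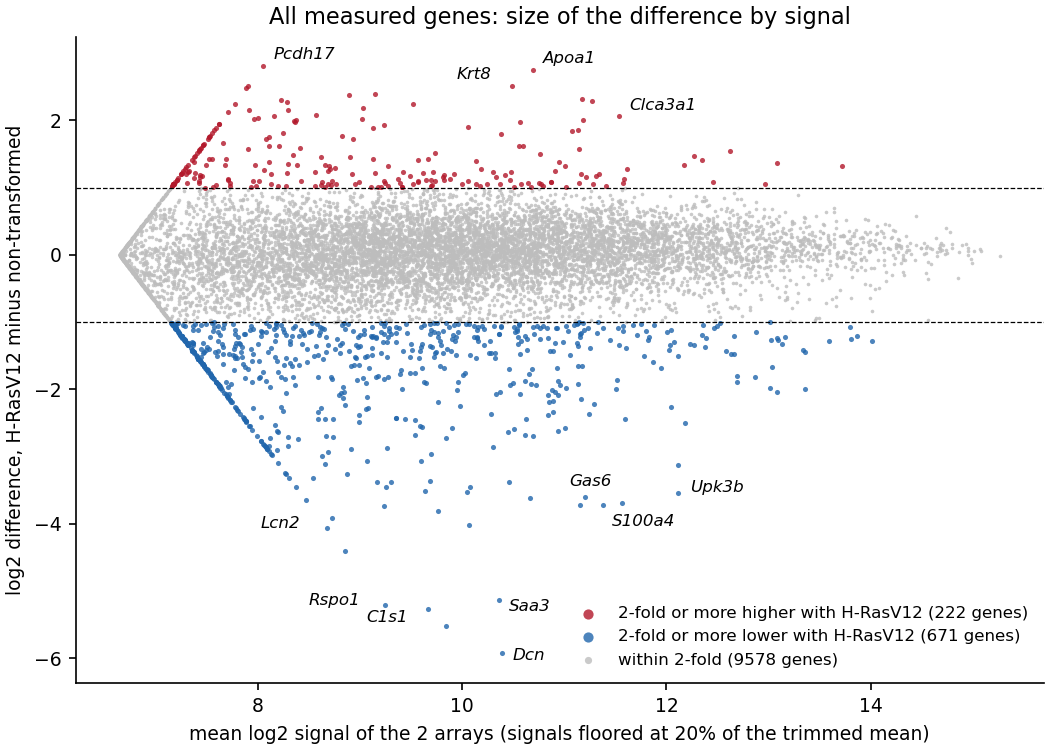
Log2 difference of each of the 10471 measured genes (y axis, H-RasV12 minus non-transformed) against its mean log2 signal on both arrays (x axis). The dashed lines mark 2-fold, the straight edges at the left are genes at the floor on 1 array, and the 671 lower genes reach further from 0 than the 222 higher ones.

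Probe sets of the same gene are the only repeated measure on these arrays. They read the same RNA at different places, so they check the probes and not the cultures. In 4249 genes whose 2 brightest probe sets were above the floor on both arrays, the differences given by these probe sets lay a median of 0.19 apart on the log2 scale. The gap shrank with signal, with a median of 0.27 in the dimmest of 4 equal groups of genes and 0.13 in the brightest. Direction held best where the difference was large: the next probe set went the same way in 64.6% of genes under 0.25, in 91.8% of those at 0.5 to 1, in 97.4% of those at 1 to 2, and in 39 of 39 genes at 2 or more. Of the 893 genes called at 2-fold (8.53%), 365 had a further measured probe set. All of these pointed the same way in 349 genes and reached 2-fold in 160 (38 higher, 122 lower), which is 43.8% (exact binomial 95% interval 38.7 to 49.1%, for counting error only). In 0 of them did probe sets differ by 2-fold in opposite directions, and 528 called genes rest on 1 measured probe set. Among genes named below as higher or lower, a dimmer probe set differed by less than 0.5 in Cdh3 (-0.17), Podxl (-0.17), Myh11 (-0.35), Ifngr2 (-0.37), Gadd45b (-0.43), Sfrp1 (-0.48) and Slit2 (-0.05), and in 5 more where this is said beside the value.

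**Figure D2:**
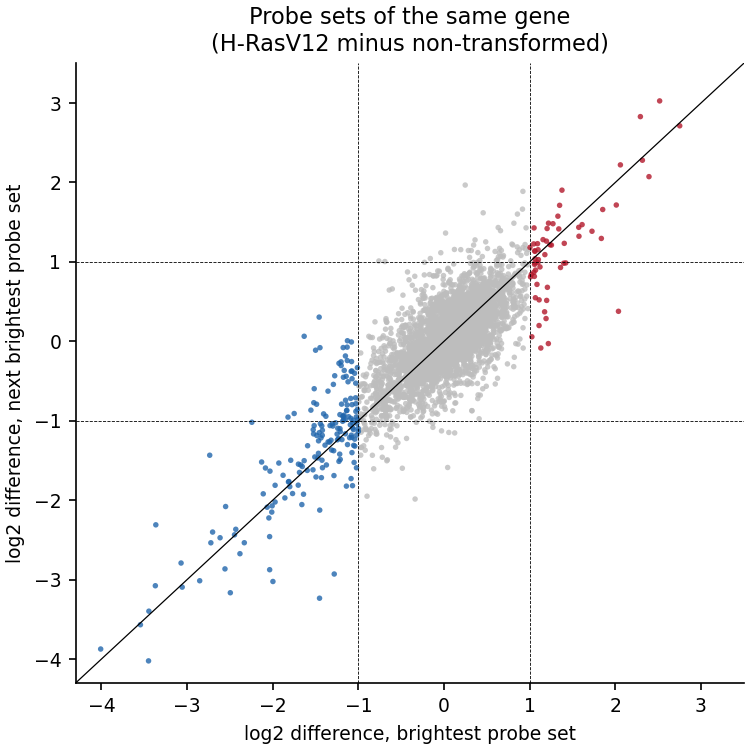
Log2 difference by the next brightest probe set (y axis) against that by the brightest (x axis), for the 4249 genes with both above the floor on both arrays. Red and blue points are genes at least 2-fold higher or lower in H-RasV12 cells by the brightest probe set, and the points lie along the line of equality, the 39 genes at 2 or more without exception on the side of their sign.

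The most firmly measured higher genes were those whose probe sets all passed 2-fold, 38 of 4796 genes with more than 1 measured probe set (0.792%). Besides Krt8, taken up below, they included Clca3a1, a secreted regulator of chloride channels, with a signal of 6081 in H-RasV12 cells and 1459 in non-transformed cells (4.17 times higher). Emb, which encodes the adhesion protein embigin, read 4271 on the H-RasV12 array, against 1182 on the non-transformed array. Rbm47, an RNA-binding protein that takes part in apolipoprotein B RNA editing, had 1078 in H-RasV12 cells and 291.2 in non-transformed cells (3.70 times higher). Gcnt1, an enzyme that starts core 2 O-glycans, differed by 1.58. Mgat5, which branches N-glycans, differed by 1.61, while 4 of the 6 measured Mgat genes lay below 0. Orai2, a subunit of store-operated calcium channels, was 3.31 times higher.

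Lower genes with all probe sets past 2-fold numbered 122 of 4796 (2.54%). Nupr1, a stress-induced chromatin protein, had 325.8 in H-RasV12 cells and 3562 in non-transformed cells, and its probe sets gave differences of -4.02 and -3.45. For Emp2, a tetraspan protein of the cell surface, the signals were 437.2 in H-RasV12 cells and 4523 in non-transformed cells (10.3 times lower). Ypel2 was 10.3 times lower, and Smpd3, the neutral sphingomyelinase of ceramide and exosome formation, was 6.60 times lower. Several of these genes act at the surface of neurons as well as of other cells. Ptprd, a receptor tyrosine phosphatase, read 184.8 on the H-RasV12 array, against 1553 on the non-transformed array. Gabrb1, a subunit of GABA receptors, read 235.8 on the H-RasV12 array, against 2699 on the non-transformed array, and Ptprz1, another receptor tyrosine phosphatase, was at least 7.27 times lower. Among genes with 1 measured probe set, Gas6, the ligand of the TAM receptors, stood at 677.9 in H-RasV12 cells and 8176 in non-transformed cells (12.1 times lower).

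The core kinases of the pathway downstream of Ras were at nearly the same level in both cultures, while several of its regulators and ligands were not. Of 21 measured genes of the RAF-MEK-ERK cascade, 0 were 2-fold higher or lower, and their median difference was 0.04, against 0.01 over all genes. Map2k1, which encodes MEK1, read 3397 on the H-RasV12 array, against 2995 on the non-transformed array, and Map2k2, which encodes MEK2, read 2814 on the H-RasV12 array, against 2528 on the non-transformed array. The widest differences in this list were -0.69 for Braf and 0.47 for the scaffold gene Ksr1. Hras itself was not analysed here.

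Genes that turn Ras-family GTPases on or off differed more. Of 13 measured exchange factors, which load GTP, 2 were higher and 0 lower (median 0.25, but -0.051 when the floor was lowered to 10% of the trimmed mean). Rasgrp3, an exchange factor that answers to diacylglycerol, had a signal of 339.9 in H-RasV12 cells and 75.6 in non-transformed cells and was at least 3.40 times higher. It exceeded the floor only with H-RasV12, so the filter fixed its direction. Of the 10 exchange factors above the floor on both arrays, 1 was higher and 0 lower. This was Rasgef1b, at 662.8 in H-RasV12 cells and 148.8 in non-transformed cells. Of 15 GTPase-activating proteins and SPRED adaptors, which shut the GTPases off, 0 reached 2-fold, but 12 lay above 0 and 3 below (median 0.48). Rasa1 differed by 0.42, Rasa3 by 0.84, the Rap GAP Sipa1l1 by 0.93, Rasal2 by -0.98 and Dab2ip by -0.82.

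Within the Ras family of GTPases, 1 of 22 measured members was higher and 3 were lower. Of the 19 above the floor on both arrays, 0 were higher and 3 lower. Rasl11b, a small atypical member, had a signal of 1941 in H-RasV12 cells and 9259.5 in non-transformed cells (4.77 times lower). Mras and Rras, which like H-Ras can activate RAF or PI3K, were 3.10 times lower and 2.25 times lower, and both probe sets of Mras passed 2-fold (-1.63 and -1.50). Rerg, a growth-inhibiting member first described in breast tissue, was at least 3.62 times higher. It exceeded the floor only with H-RasV12, so the filter fixed its direction. Nras differed by 0.54, Rala by 0.16 and Rheb, the activator of mTORC1, by -0.35, so these stayed within 2-fold.

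ERK's own inhibitors lay mostly above 0. Among 20 measured members, 15 lay above 0 and 5 below (median 0.48), with 2 at least 2-fold higher and 2 lower. Errfi1, an inhibitor of the EGF receptor, had 7326 in H-RasV12 cells and 2894 in non-transformed cells, and its probe sets gave 1.34 and 1.42. Dusp4, a nuclear ERK phosphatase, read 11525 on the H-RasV12 array, against 5569.5 on the non-transformed array. Dusp6, the cytoplasmic ERK phosphatase, read 12162 on the H-RasV12 array, against 9169 on the non-transformed array and was within 2-fold, as were Spry2 (0.68) and Spred2 (0.72). The 2 lower members were Dusp1 (-1.44), a phosphatase of stress kinases as well as ERK, and Dusp8 (at least 2.41 times lower), which acts on stress kinases.

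Genes of the early response to serum and growth factors, which include transcription factors, lay on the other side. Of 28 measured, 22 were below 0 and 6 above (median -0.57), with 7 at least 2-fold lower and 1 higher. Btg2, an antiproliferative early gene, had 804.3 in H-RasV12 cells and 4196 in non-transformed cells (5.22 times lower), and its probe sets both passed 2-fold. Jun read 2757 on the H-RasV12 array, against 6735 on the non-transformed array and was 2.44 times lower. Zfp36, which encodes an RNA-destabilising protein, was 2.60 times lower and Klf10 2.26 times lower. The member above 2-fold was Fosl1, which encodes the AP-1 subunit FRA1, at 2947 in H-RasV12 cells and 1463 in non-transformed cells. Egr1 stayed close, at 13222 in H-RasV12 cells and 10598 in non-transformed cells, and Fos differed by -0.66.

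Among ETS factors, which ERK phosphorylates or induces, 1 of 13 was higher and 0 lower. Etv4, of the PEA3 group, had 1174 in H-RasV12 cells and 308.4 in non-transformed cells (3.81 times higher), while Etv5 of the same group differed by 0.50. Of 16 measured genes for EGF-family ligands, their receptors, related receptors and the enzymes that process them, 4 were higher and 1 lower (median 0.03), and 3 of the 4 were ligands. Btc, betacellulin, had 583.0 in H-RasV12 cells and 139.5 in non-transformed cells and was 4.18 times higher. Ereg, epiregulin, read 3589 on the H-RasV12 array, against 1731 on the non-transformed array, and Tgfa was at least 2.21 times higher, while Hbegf differed by 0.55 and Egf by -0.09. The other higher gene was Spint1, an inhibitor of the protease that activates HGF (at least 1.21). Tgfa and Spint1 exceeded the floor only with H-RasV12, so the filter fixed their direction. Of the 13 members above the floor on both arrays, 2 were higher, Btc and Ereg, and 1 lower. The receptor of these ligands, Egfr, differed by -0.53 and Erbb2 by 0.50. Met, the receptor of the HGF in the medium, read 2321 on the H-RasV12 array, against 2218 on the non-transformed array, whereas Mst1r, its closest relative, was 3.83 times lower. Of the secondary outputs of ERK, 2 of 30 were higher, Ereg and Tgfa, and 2 lower (median 0.26). Ccnd1, cyclin D1, had 13638 in H-RasV12 cells and 7334 in non-transformed cells, and its 3 probe sets, at 0.89 to 1.15, lay on both sides of 2-fold. So did those of Cd44, an adhesion receptor (0.50 to 1.23), and Hmga2, a chromatin protein of fetal cells (0.63 to 1.06).

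Of 31 PI3K, AKT and mTOR genes 0 were higher and 2 lower (6.45%, against 6.41% of all genes), with a median of -0.02. Sgk3, a kinase related to AKT, was at least 4.27 times lower by its brightest probe set and -0.10 on the log2 scale by another, and Sesn1, a stress-induced inhibitor of mTORC1, was 2.05 times lower.

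**Figure D3:**
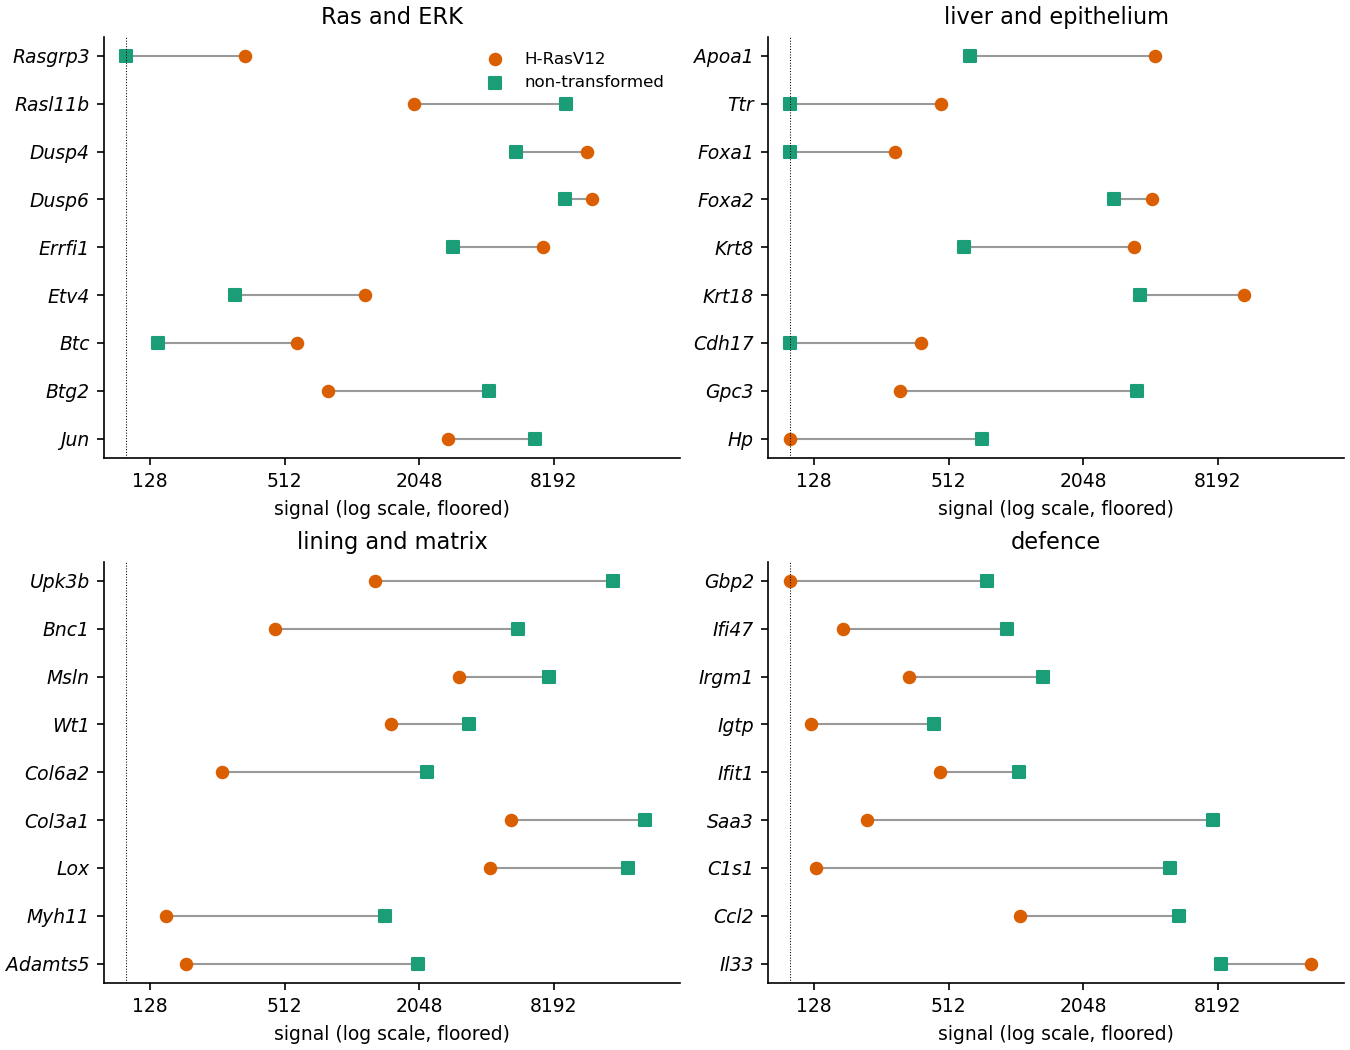
Signals of 36 genes in 4 groups on the H-RasV12 array (orange circles) and on the non-transformed array (green squares), on a log scale with the floor of 100.001 as a dotted line. Joined points are 1 gene, and levels of different genes cannot be compared. All 9 lining and matrix genes shown lie lower with H-RasV12, and so do 8 of the 9 defence genes, Il33 being the exception. The 36 genes were picked with earlier results known, so these counts describe the figure and not the gene lists, which also hold higher members.

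The labelled cell type was checked against markers. Of 13 hepatoblast markers with a probe set, 11 were above the floor in H-RasV12 cells and 9 in non-transformed cells. Their summed signals were 32943 in H-RasV12 cells and 13456 in non-transformed cells. Krt18 (10745 in H-RasV12 cells and 3690 in non-transformed cells) and Cd24a (8501 in H-RasV12 cells and 3212 in non-transformed cells) were the largest parts. Afp, Alb and Hnf4a added only 568.3, 167.6 and 169.1 in H-RasV12 cells, so the sums say little of them. Non-transformed cells had Afp, Alb and Hnf4a at the floor, while Krt8, Krt18, Krt19, Foxa2 and Sox9 were above it in both cultures. Epcam was above the floor only in non-transformed cells (112.1, against 74.9 in H-RasV12 cells), and Prom1 was at it in both. In a longer hepatoblast list, 7 of 15 measured genes were higher and 1 lower, against 2.12% and 6.41% over all genes. Of the 10 above the floor on both arrays, 6 were higher and 1 lower. The lower one was Gpc3, at 311.6 in H-RasV12 cells and 3576 in non-transformed cells (11.5 times lower). Markers of the mesothelium, the lining of the liver's surface, were bright in the non-transformed culture. Of 9 such markers, 7 were above the floor in H-RasV12 cells and 8 in non-transformed cells, with summed signals of 12066 in H-RasV12 cells and 59774 in non-transformed cells. For stellate markers the counts were 6 of 9 in each culture, with sums of 3687 in H-RasV12 cells and 5185 in non-transformed cells, and Lrat, Ngfr and Reln were at the floor in both. The 7 endothelial and 3 lymphoid markers were at the floor in both cultures. Of 6 macrophage markers Cd68 and Csf1r were above it in both cultures, with sums over the 6 of 346.1 in H-RasV12 cells and 288.8 in non-transformed cells, and Ptprc, Adgre1, Clec4f and Tyrobp were at it. Of 4 erythroid markers only Epor was above the floor, in H-RasV12 cells (120.4, against 72.5 in non-transformed cells). RNA of a whole culture cannot tell fewer cells of a type from less RNA per cell, and the part of cell composition in the differences below was not tested.

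Some secreted liver proteins were higher in H-RasV12 cells, while measured hepatic metabolism and cytochrome P450 genes lay more often below 0. Of 49 genes for secreted liver proteins with a probe set, 18 were measured, 16 of them above the floor in H-RasV12 cells and 9 in non-transformed cells. Those below the floor in the non-transformed culture had no other way to go than up, so the count of 7 higher and 1 lower describes these genes and no more. Among the 7 genes above the floor on both arrays, 3 were higher and 0 lower, with a median of 0.018. Itih2, a heavy chain that binds hyaluronan, had 652.2 in H-RasV12 cells and 165.8 in non-transformed cells (3.93 times higher). Rbp4, the plasma carrier of retinol, read 674.4 on the H-RasV12 array, against 276.2 on the non-transformed array. Ttr, which carries thyroid hormone, had 475.6 in H-RasV12 cells and 11.1 in non-transformed cells, and its 4 measured probe sets gave 1.30 to 2.25. Serpina1b, a mouse alpha-1-antitrypsin gene, was at least 2.92 times higher and Apoc2, the activator of lipoprotein lipase, at least 2.75 times higher. The 1 lower member was Hp, haptoglobin, which had 24.3 in H-RasV12 cells and 720.0 in non-transformed cells and was at least 7.20 times lower.

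Of 17 measured transcription factors of the liver, 2 were higher and 1 lower (median -0.23). The 2 higher ones, Foxa1 and Hhex, exceeded the floor only with H-RasV12, so the filter fixed their direction. Of the 12 above the floor on both arrays, 0 were higher and 1 lower (median -0.43). The pioneer factor Foxa1 had 294.9 in H-RasV12 cells and 36.4 in non-transformed cells (at least 2.95 times higher) and Hhex, needed for the liver bud, 336.1 in H-RasV12 cells and 94.6 in non-transformed cells (at least 3.36 times higher). Foxa2 was bright in both, at 4169 in H-RasV12 cells and 2821 in non-transformed cells. Gata4 differed by -0.47 and Gata6 by -0.54, and Cebpd, an acute-phase factor, was 2.60 times lower. Most enzymes of mature liver were below the floor on both arrays. Of 46 hepatic metabolism genes with a probe set 9 were measured (3 above 0 and 6 below), and of 37 cytochromes P450 likewise 9 (2 above 0 and 7 below). All 9 of each were above the floor in non-transformed cells, but only 8 and 7 in H-RasV12 cells, so the rest could only fall below 0. Of those 8 metabolism genes 1 was higher and 1 lower (median -0.096). Of those 7 cytochromes P450 0 were higher and 1 lower (median -0.24). Aldh1a1, a retinaldehyde dehydrogenase, had 3445 in H-RasV12 cells and 12703 in non-transformed cells (3.69 times lower). Biliary genes were split, with 3 of 15 higher and 2 lower. Tm4sf4, a tetraspan protein, was at least 3.35 times higher, and Krt7, a keratin of bile ducts, was 3.20 times lower, at 506.9 in H-RasV12 cells and 1621 in non-transformed cells.

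Epithelial structures differed by component and not as a whole. The pair of simple-epithelium keratins led: Krt8 had 3441 in H-RasV12 cells and 600.7 in non-transformed cells and Krt18 10745 in H-RasV12 cells and 3689.7 in non-transformed cells, and Krt20 was at least 2.47 times higher. Among 18 tight junction genes, 5 were higher and 2 lower (median 0.19). Of the 15 above the floor on both arrays, 3 were higher and 2 lower (median 0.13). Cldn2, a claudin that forms cation pores, was at least 3.52 times higher and Cldn6, a claudin of embryonic epithelium, at least 2.07 times higher. Both exceeded the floor only with H-RasV12, so the filter fixed their direction. Cldn15, of the same family, had 117.7 in H-RasV12 cells and 840.4 in non-transformed cells (7.14 times lower). Cadherins were likewise divided. Cdh17, the liver-intestine cadherin, was at least 3.85 times higher and Cdh1, E-cadherin, 2.27 times higher, whereas Cdh11, a mesenchymal cadherin, was 3.29 times lower and Cdh3, P-cadherin, 2.89 times lower. Of 12 desmosome and hemidesmosome genes, 3 were higher and 0 lower. These were Dsp, desmoplakin (1.06), Pkp1, plakophilin (1.03), and Itga6, the laminin-binding integrin subunit (1.20). Of 27 factors linked to epithelial-mesenchymal transition, 0 were higher and 3 lower (median 0.08), with Tcf21 at least 3.93 times lower and Tbx20 2.22 times lower.

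Other intermediate filaments included the neurofilament genes. Nefl had 667.0 in H-RasV12 cells and 165.4 in non-transformed cells and was 4.03 times higher, with probe sets at 1.72 and 2.01, and Nefm was 2.97 times higher. Des, desmin, was 4.88 times lower, at 240.8 in H-RasV12 cells and 1175 in non-transformed cells. Snap25, a membrane fusion protein of neurons and endocrine cells, read 1240.0 on the H-RasV12 array, against 464.8 on the non-transformed array.

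Genes of the mesothelium were mostly lower in H-RasV12 cells. Of 27 measured, 17 were lower and 2 higher (median -1.19), against 6.41% and 2.12% over all genes, and 22 were above the floor in H-RasV12 cells and 27 in non-transformed cells. Of the 22 above it on both arrays, 13 were lower and 2 higher. Upk3b, a uroplakin used as a mesothelial marker, had 1299 in H-RasV12 cells and 15167 in non-transformed cells, and its probe sets gave -3.57 and -3.55. Bnc1, a zinc finger factor of the mesothelium, read 462.1 on the H-RasV12 array, against 5656 on the non-transformed array (12.2 times lower). Muc16, the antigen CA125, was at least 4.57 times lower, Podxl, podocalyxin, 4.41 times lower and Upk1b 3.93 times lower. Of the defining markers, 2 differed less: Msln, mesothelin, had 3096 in H-RasV12 cells and 7837 in non-transformed cells and Wt1 1529 in H-RasV12 cells and 3419 in non-transformed cells. The members that were higher were Krt8 and Bnc2 (1.01). The summed signals of the 9 defining markers, given above, were lower in H-RasV12 cells too.

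Collagens were mostly lower, inside and outside the fibrillar group. Of 15 measured collagens that do not form fibrils, 10 were lower and 2 higher (median -1.37), and 11 were above the floor in H-RasV12 cells and 15 in non-transformed cells. Of those 11, 7 were lower and 2 higher. Col6a2 had 268.0 in H-RasV12 cells and 2231 in non-transformed cells (8.33 times lower) and its partner chain Col6a1 651.6 in H-RasV12 cells and 4198 in non-transformed cells (6.44 times lower). Basement membrane chains Col4a5 and Col4a6, which lie head to head on the X chromosome, differed by -1.32 and -1.42. Col4a2 differed by -1.26, while its partner Col4a1 stayed within 2-fold (-0.84). The 2 higher members were Col7a1 and Col15a1. Col7a1, of anchoring fibrils, was 2.03 times higher and Col15a1 2.12 times higher. Of 8 fibrillar collagens 4 were lower and 1 higher (median -1.004). Col3a1 had 5255 in H-RasV12 cells and 20989 in non-transformed cells and Col1a1 3536 in H-RasV12 cells and 12325 in non-transformed cells, but Col1a2, the second chain of type I collagen, differed by only -0.36. Col2a1, the cartilage collagen, was at least 2.42 times higher.

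Other matrix lists also lay mostly below 0. Of 31 elastic fibre and matricellular genes, 13 were lower and 0 higher (median -0.77). Fbln5, fibulin-5, had 1494 in H-RasV12 cells and 13081 in non-transformed cells, Mgp, matrix Gla protein, was 5.95 times lower and Spon2, a secreted matrix protein, 10.4 times lower. A dimmer probe set of Fbln5 gave a much smaller difference (-0.33). Sparc, bright in both cultures, had 17247 in H-RasV12 cells and 33831 in non-transformed cells and stayed just within 2-fold. Of 21 basement membrane genes, 8 were lower and 1 higher (median -0.84). The higher one was Col15a1, already counted among the collagens above, so the lists overlap. Of the 18 above the floor on both arrays, 7 were lower and 1 higher. The lower genes included the laminin chains Lama2 (at least 6.79 times lower), Lama5 (-1.08), Lamb2 (-1.25) and Lamc1 (-1.02). Of 23 measured genes that crosslink matrix or modify collagen, 22 lay below 0 and 1 above (median -0.64). Only 3 of the 23 were lower by 2-fold, 1 was higher and 19 stayed within 2-fold. Tgm2, the crosslinking enzyme transglutaminase 2, had 1961 in H-RasV12 cells and 11058 in non-transformed cells, and its 5 probe sets gave -3.20 to -2.50. Lox, lysyl oxidase, read 4271 on the H-RasV12 array, against 17628 on the non-transformed array (4.13 times lower).

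Proteases that remodel matrix showed 11 of 35 lower and 0 higher (median -0.42). Of these 35, 26 were above the floor in H-RasV12 cells and 35 in non-transformed cells, so 9 could only come out lower, and of the 26 above it on both arrays 8 were lower. The ADAMTS family, secreted metalloproteases that cut proteoglycans and procollagens, accounted for 5 of these and had 9 of 9 measured members below 0. Adamts5, an aggrecanase, had 185.0 in H-RasV12 cells and 2017 in non-transformed cells, with 3 probe sets at -3.45 to -2.94. Adamts12 was 7.79 times lower, Adamts7 at least 5.81 times lower and Adamts1 5.41 times lower. The collagenase activator Mmp14 was 2.34 times lower and Mmp2, the gelatinase it activates, 2.18 times lower. Their inhibitor Timp3 was lower as well, at 6322 in H-RasV12 cells and 16923 in non-transformed cells. Hyaluronan synthases went the other way, with Has1 at least 3.69 times higher and Has2 at least 2.38 times higher, though neither exceeded the floor in the non-transformed culture and a second probe set of Has2 gave 0.38.

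Contractile genes differed in part. Myh11, the smooth muscle myosin heavy chain, had 151.0 in H-RasV12 cells and 1447 in non-transformed cells (9.58 times lower), Actg2, gamma smooth muscle actin, 547.6 in H-RasV12 cells and 2832 in non-transformed cells, and Mylk, myosin light chain kinase, was 7.32 times lower. Of members with high signals, Acta2 differed by -0.34 (its dimmer probe set by -1.99), Tpm1 by -0.04 and Tpm2 by 0.10. Over the list, 9 of 43 were lower and 1 was higher, Sorbs2, a sarcomere and adhesion adaptor (2.29).

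**Figure D4:**
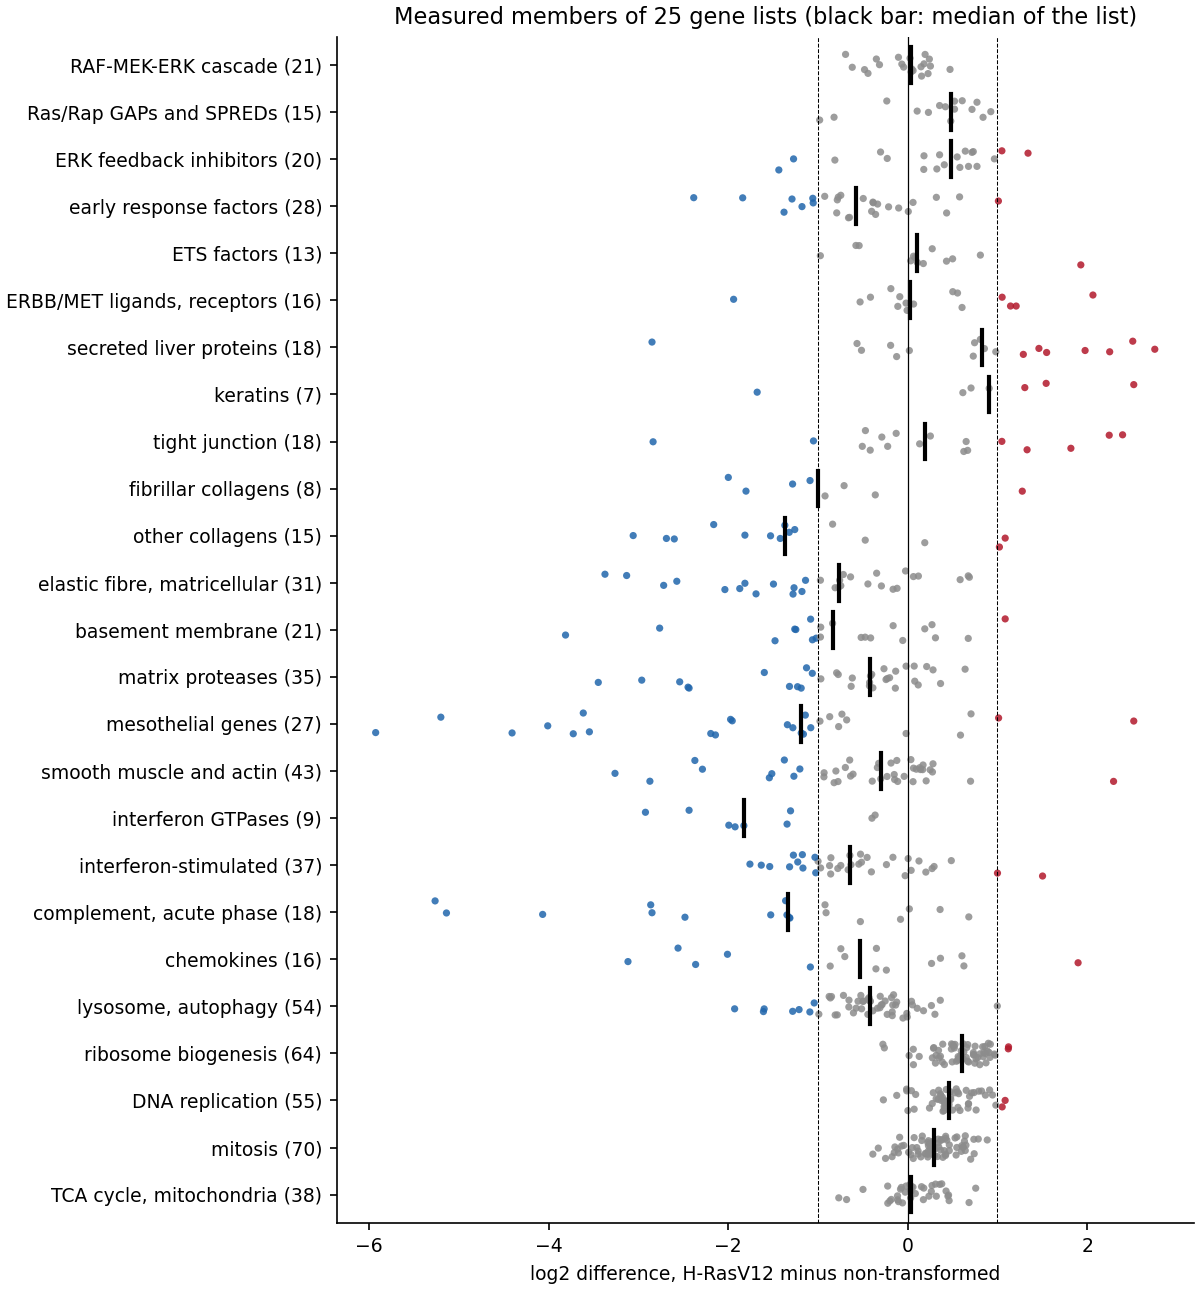
Log2 differences (x axis, H-RasV12 minus non-transformed) of the measured members of 25 gene lists, with the number measured in brackets and the list's median as a black bar. Interferon GTPases, complement, collagens and mesothelial genes have medians below -1, while ribosome biogenesis, keratins and secreted liver proteins have medians above 0.5. The last of these is 0.018 over genes above the floor on both arrays.

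Most measured interferon-inducible GTPases, which defend cells against intracellular microbes, were lower in H-RasV12 cells. Of 14 with a probe set, 9 were measured, 5 of them above the floor in H-RasV12 cells and 9 in non-transformed cells, and 7 were lower and 0 higher (median -1.82). The filter fixed the direction of the 4 at the floor in H-RasV12 cells. Of the 5 above it on both arrays 4 were lower, and with the floor raised to 40% of the trimmed mean 4 of 8 were lower (median -1.03). Gbp2, a guanylate-binding protein, had 75.1 in H-RasV12 cells and 757.4 in non-transformed cells, and both of its probe sets passed 2-fold (-2.92 and -2.38). Ifi47, of the immunity-related GTPases, read 173.2 on the H-RasV12 array, against 936.6 on the non-transformed array (5.41 times lower), and Irgm1 read 342.0 on the H-RasV12 array, against 1361 on the non-transformed array. Gbp7 was 2.47 times lower, with probe sets at -1.30 and -1.04, while the giant Rnf213 differed by only -0.40.

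The promoters of these GTPases are known to bind interferon-activated factors, so their letters were read. The pattern GAAA, any 2 bases, GAAA, a short form of the interferon response element, was searched on both strands of 300-base windows (250 bases before to 50 after the start) in the RefSeq promoter table of GRCm38.p6. It was in 6 of the 8 measured GTPases with a window, Gbp2, Gbp3, Gbp7, Irgm1, Irgm2 and Igtp, and in 3.99% of all 27025 genes in the table. The same letters were in 6.88% of the lower genes, 3.80% of the higher genes and 3.46% of all measured genes. The 6 stretches are shown 5′ to 3′ on the strand of the gene, with matches in capitals, because these 6 genes are among the 7 lower GTPases.
Gbp2 (GRCm38.p6, chr3:142620579-142620638, plus strand): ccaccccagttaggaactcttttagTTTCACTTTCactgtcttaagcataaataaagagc
Gbp3 (GRCm38.p6, chr3:142559974-142560033, plus strand): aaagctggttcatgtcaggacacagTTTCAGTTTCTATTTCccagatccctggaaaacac
Gbp7 (GRCm38.p6, chr3:142530258-142530317, plus strand): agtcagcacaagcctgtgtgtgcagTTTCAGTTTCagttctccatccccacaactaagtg
Irgm1 (GRCm38.p6, chr11:48871416-48871475, minus strand): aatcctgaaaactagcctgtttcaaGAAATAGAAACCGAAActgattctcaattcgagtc
Irgm2 (GRCm38.p6, chr11:58214888-58214947, plus strand): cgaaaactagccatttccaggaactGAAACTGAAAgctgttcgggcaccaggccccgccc
Igtp (GRCm38.p6, chr11:58199497-58199556, plus strand): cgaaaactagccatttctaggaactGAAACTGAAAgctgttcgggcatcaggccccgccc
In the 3 Gbp genes the match lies on the opposite strand, read here as TTTC, 2 bases, TTTC, and in the others on the strand of the gene. Gbp3 and Irgm1 hold 2 overlapping matches each. The Irgm2 and Igtp stretches share 58 of 60 bases. Probe sets of such close paralogs may bind more than 1 transcript, which was not tested. A match is a description of the letters and no evidence of binding.

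Other interferon-stimulated genes were also more often lower than higher. Of 37 measured, 10 were lower and 2 higher (median -0.64). Samd9l, an antiviral protein, had 389.7 in H-RasV12 cells and 1317 in non-transformed cells (3.38 times lower), Ifit3 was 3.10 times lower and Oasl2 2.90 times lower. The higher members were Ifitm1, an antiviral membrane protein also known from germ cells, at 2912 in H-RasV12 cells and 1028 in non-transformed cells, and Oas1a, at 252.2 in H-RasV12 cells and 126.1 in non-transformed cells. Genes of the signalling route upstream were mostly within 2-fold, with 0 of 34 higher and 2 lower (median -0.17): the receptor subunit Ifngr2 (-1.08) and the kinase Ikbke (-1.37). Among 12 antigen presentation genes, all 12 lay below 0, with 2 lower (16.7%, against 6.41% of all genes) and 0 higher. All 12 were above the floor in non-transformed cells and 10 in H-RasV12 cells, so the rest could only fall below 0. B2m (-0.43) and H2-K1 (-0.22) differed only slightly. Tapbp, tapasin, was 3.42 times lower and Fcgrt, the neonatal Fc receptor, 7.50 times lower.

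Complement and acute-phase genes were lower in 11 of 18 cases and higher in 0 (median -1.33), and in 7 of the 13 above the floor on both arrays. C1ra, the protease partner of C1s, had 67.3 in H-RasV12 cells and 727.2 in non-transformed cells (at least 7.27 times lower). Lbp, which binds bacterial lipopolysaccharide, read 319.5 on the H-RasV12 array, against 819.9 on the non-transformed array, and Serping1, the inhibitor of C1, was 2.49 times lower. Steap4, a metalloreductase induced by inflammation, was at least 5.58 times lower. Of 27 measured genes for interleukins and their receptors, 3 were lower (11.1%, against 6.41% of all genes) and 2 higher (median -0.12). Among cytokine genes, Il1r1, the receptor of IL-1, was 2.54 times lower and the shared receptor chain Il6st 2.13 times lower, with all 3 probe sets past 2-fold. Of 16 chemokines and receptors, 5 were lower and 1 higher (median -0.53). All 16 were above the floor in non-transformed cells and 12 in H-RasV12 cells, so the rest could only fall below 0. Chemokines Ccl2 and Cxcl1 read 1066 in H-RasV12 cells and 5482 in non-transformed cells, and 320.8 in H-RasV12 cells and 1889 in non-transformed cells. Of 7 measured Ccl genes, however, 4 lay above 0 (median 0.27). In contrast, Il33, an alarmin kept in the nucleus, was bright and higher, at 21389 in H-RasV12 cells and 8515 in non-transformed cells (2.51 times higher), and Cx3cl1, fractalkine, was 3.73 times higher, although its second probe set gave 0.70.

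Ribosome biogenesis genes lay mostly above 0, by less than 2-fold. Of 64 measured genes, 62 lay above 0 and 2 below, with a median of 0.61 and a range of -0.28 to 1.12, yet 2 reached 2-fold and 0 were lower. These 2 were Nob1, the nuclease that finishes 18S rRNA, at 1388 in H-RasV12 cells and 637.2 in non-transformed cells, and Rrp1b, at 2090.1 in H-RasV12 cells and 961.2 in non-transformed cells. Utp14a (0.97) and Utp20 (0.89), of the small subunit processome, came just under it. Of members with high signals, Npm1 differed by 0.35 and Ncl by 0.53.

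The ETS pattern CCGGAAG, searched in the same way, was in 25 of 58 ribosome biogenesis promoters with a window (43.1%), against 21.2% of all measured genes and 9.93% of the whole table. The 2-fold higher genes held it in 8.23% and the 2-fold lower genes in 8.03%. CACGTG, the E-box that MYC and other factors bind, was in 11 of these 58 promoters and in 1042 of the 8558 measured genes with a window (12.2%). The 4 examples, chosen after their values were seen, show the ETS letters in their surroundings.
Nop2 (GRCm38.p6, chr6:125131820-125131876, plus strand): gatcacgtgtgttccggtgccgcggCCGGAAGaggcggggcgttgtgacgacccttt
Nolc1 (GRCm38.p6, chr19:46075808-46075864, plus strand): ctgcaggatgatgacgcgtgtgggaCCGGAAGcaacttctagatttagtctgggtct
Heatr1 (GRCm38.p6, chr13:12395334-12395390, plus strand): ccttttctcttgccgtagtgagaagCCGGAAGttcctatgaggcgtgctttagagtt
Utp4 (GRCm38.p6, chr8:106893572-106893628, plus strand): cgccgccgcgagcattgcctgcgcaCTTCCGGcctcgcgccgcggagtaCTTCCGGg
Capitals mark the matches, which are on the opposite strand, as CTTCCGG, in Utp4. Counted from the start given by RefSeq, the first match begins at -38 in Nop2, -14 in Nolc1, -16 in Heatr1 and -43 in Utp4, while over all promoters of the list that hold the letters it begins at -187 to 25. Nop2, an rRNA methyltransferase, differed by 0.67, Nolc1, a nucleolar assembly protein, by 0.86, and Heatr1 and Utp4, of the small subunit processome, by 0.83 and 0.86. Over all 25 members of the list that hold the letters, differences ran from -0.26 to 0.90, so the examples lie toward the high end.

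DNA replication genes lay above 0 in 51 of 55 cases (median 0.46), with 2 higher and 0 lower. Fen1, the flap endonuclease, had 2733 in H-RasV12 cells and 1288 in non-transformed cells and Gins1, of the replicative helicase, 1909.6 in H-RasV12 cells and 920.8 in non-transformed cells. All 10 measured Mcm genes were above 0, led by Mcm10 (0.98). Mitosis genes shifted less, with 59 of 70 above 0, 0 past 2-fold in either direction and a median of 0.29. Nucleoporins, which build the nuclear pore, were above 0 in 17 of 17 (0.10 to 0.89, median 0.58). Host genes of small nucleolar RNAs were above 0 in 11 of 13, and 3 of them were higher, Snhg7 (1.38), Snhg16 (1.20) and Snhg3 (1.19). Aminoacyl-tRNA synthetases had 19 of 22 above 0 but 0 past 2-fold (median 0.32). By comparison, TCA cycle and mitochondrial genes were centred near 0 (median 0.04, 0 of 38 past 2-fold either way).

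**Figure D5:**
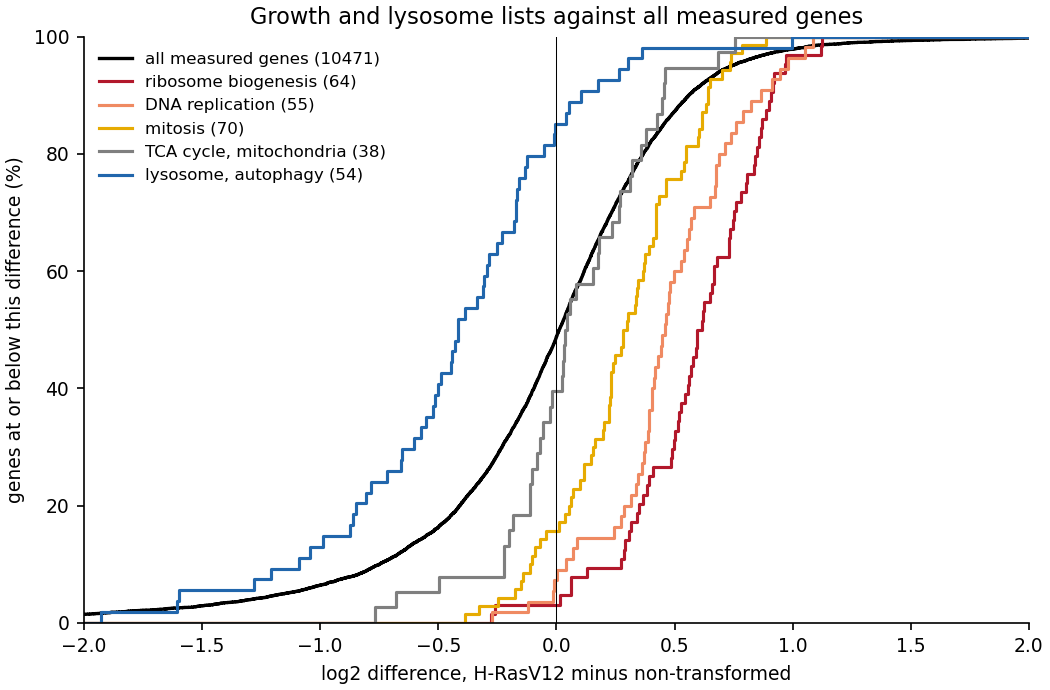
Cumulative share of genes (y axis, percent) at or below each log2 difference (x axis, H-RasV12 minus non-transformed), for 5 lists and all 10471 measured genes, with the number measured in brackets. Over most of their course the curves of ribosome biogenesis, DNA replication and mitosis lie to the right of all genes and that of lysosome genes to the left, while that of TCA cycle genes crosses it near 0.

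Lysosome and autophagy genes lay mostly below 0. Of 54 measured, 46 lay below 0 and 8 above (median -0.42), with 7 lower and 0 higher. Ctsd, the aspartic protease cathepsin D, had 1652 in H-RasV12 cells and 3516 in non-transformed cells, and Gm2a, the GM2 ganglioside activator, 867.3 in H-RasV12 cells and 3299.6 in non-transformed cells (3.80 times lower). The glycan-degrading enzymes Sgsh and Naglu were 2.43 times lower and 2.31 times lower. Gabarapl1, of the autophagosome, read 3660.1 on the H-RasV12 array, against 7534 on the non-transformed array.

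Most of the lower chaperones were small heat shock proteins. Of 56 chaperone and proteasome genes, 44 lay above 0 (median 0.24), 0 were higher and 6 lower, and 5 of these 6 encode small heat shock proteins. Hspb1 had 9848 in H-RasV12 cells and 22814 in non-transformed cells and Cryab, alphaB-crystallin, 3909 in H-RasV12 cells and 10803 in non-transformed cells. Hspb8 was 5.40 times lower, Hspb7 at least 3.08 times lower and Hspb2 2.59 times lower. The remaining one was Hspa1a, an inducible HSP70 (-1.37), while the constitutive Hspa8 differed by 0.40, Hspd1 by 0.51 and Cct2 by 0.58.

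Genes often activated by p53 were lower in 7 of 33 cases (21.2%, against 6.41% of all genes) and higher in 0 (median -0.23). Both cultures lacked p53. All 33 were above the floor in non-transformed cells and 31 in H-RasV12 cells. Pmaip1, the BH3-only protein NOXA, had 50.3 in H-RasV12 cells and 456.2 in non-transformed cells (at least 4.56 times lower), and the Gadd45 genes were all lower, Gadd45a at -1.22, Gadd45b at -2.04 and Gadd45g at -1.31. Other death genes included Casp12, an inflammatory caspase, at 113.2 in H-RasV12 cells and 599.1 in non-transformed cells, with both probe sets past 2-fold, and Bmf, a BH3-only protein, at least 2.99 times lower. Bcl2, which blocks apoptosis, was 2.14 times higher, with 5 probe sets at 0.49 to 1.10.

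Several metabolic lists held single genes past 2-fold. In glycolysis, 0 of 37 were higher and 4 lower (median 0.15). Slc2a3, the glucose transporter GLUT3, had 847.3 in H-RasV12 cells and 4267 in non-transformed cells and Ldhb, the heart-type lactate dehydrogenase, 1045 in H-RasV12 cells and 4101 in non-transformed cells, with 4 probe sets at -2.22 to -1.68. Ldha, its muscle-type counterpart, differed by 0.22. In one-carbon metabolism Shmt1, cytosolic serine hydroxymethyltransferase, was 2.38 times higher, and Aldh1l2, a mitochondrial folate enzyme, 2.15 times lower. Nucleotide synthesis genes lay above 0 in 32 of 42, with Umps, of pyrimidine synthesis, at 1474 in H-RasV12 cells and 638.5 in non-transformed cells, whereas Xdh, xanthine oxidoreductase of purine breakdown, was 2.84 times lower. Among glutathione and NRF2 genes 3 of 53 were higher and 4 lower (median 0.07), including Gclc, the rate-limiting enzyme of glutathione synthesis, at 4424 in H-RasV12 cells and 2109 in non-transformed cells, and Mgst1, a microsomal glutathione transferase, at 5685 in H-RasV12 cells and 14235 in non-transformed cells. Abca1, the cholesterol exporter, was 3.76 times lower, the only one of 29 sterol genes past 2-fold. Elovl7, a fatty acid elongase, was 3.36 times higher, although its probe sets ranged over 0.42 to 1.75.

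Among secreted signals and their receptors, 2 of 14 genes of the FGF axis were higher and 2 lower (median -0.05). Of 27 Notch and hedgehog genes, 3 were higher and 3 lower (median -0.25). Over all genes 2.12% were higher and 6.41% lower, and these small counts were not tested against those shares. Among 36 modulators and targets of TGF-beta and BMP, 11 were lower and 1 higher (median -0.36). Fst, follistatin, had 329.7 in H-RasV12 cells and 1162 in non-transformed cells, Smad6 was 2.44 times lower and Smad7 2.14 times lower, while Grem1, a BMP antagonist, was 2.69 times higher. Of the ligands, Tgfb2 was 3.22 times lower, with 4 probe sets at -2.12 to -1.62, and Bmp4 2.23 times lower. In the WNT lists, 5 of 25 ligands and receptors and 6 of 25 inhibitors and targets were lower, with 0 higher in both. The ligands and receptors were not shifted as a set, with 13 above 0 and 12 below (median 0.03). For inhibitors and targets the median was -0.25. Among genes above the floor on both arrays, 3 of 20 ligands and receptors and 5 of 22 inhibitors and targets were lower, against 6.41% of all genes. Wnt9a was at least 7.38 times lower, Wnt11 5.04 times lower, Sfrp1 5.20 times lower and Sfrp4 3.52 times lower. Guidance genes had 25 of 29 below 0 (median -0.39) and 5 lower, among them Slit2 (4.71 times lower) and Slit3, at 628.3 in H-RasV12 cells and 2622 in non-transformed cells.

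Some ligands were higher. Pgf, placental growth factor, had 656.2 in H-RasV12 cells and 261.7 in non-transformed cells (2.51 times higher). Fgf7, a growth factor for epithelial cells, read 1555 on the H-RasV12 array, against 729.6 on the non-transformed array, with both probe sets past 2-fold (1.09 and 1.23). Its relative Fgf2 was 2.22 times lower. Dlk1, a non-canonical Notch ligand and hepatoblast marker, was 2.25 times higher, Dlk2 2.14 times higher and Nrarp, a Notch feedback gene, 2.81 times higher. Among receptors coupled to G proteins and their regulators, 4 of 38 were higher (10.5%, against 2.12% of all genes) and 7 lower (18.4%, against 6.41%). Rgs2, which damps Gq signalling, had 1824 in H-RasV12 cells and 692.4 in non-transformed cells, and Ramp1, a co-receptor for calcitonin-family peptides, 195.0 in H-RasV12 cells and 2031 in non-transformed cells (10.4 times lower).

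Grouped by the letters of their symbols alone, 332 families of 5 or more measured genes were compared. In 187 of them no member reached 2-fold, 12 had a median of -0.5 or lower and 9 of 0.5 or higher. The lowest were Adamts (median -1.32), Hspb (-1.29) and Col (-1.28), and the highest Krt (0.71), Utp (0.66) and Rrp (0.64). Utp genes, of the small subunit processome, were above 0 in 11 of 11 with 0 past 2-fold and a range of 0.19 to 0.97. Col genes ranged from -3.06 to 1.28, with 14 of 23 lower and 3 higher.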

How the data were processed

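Total RNA of 4 cultures was hybridised to single-colour Affymetrix mouse arrays, 1 array a culture, and the arrays labelled H-RasV12 and non-transformed were compared. Per the submitters' processing notes, the authors used MAS5. The deposited values are on a linear intensity scale, 1 per probe set, and share a trimmed mean (2% off each end) of 500.003 on all 4 arrays, so a common scaling had been applied. Labels and files used here name no scan date or detection call, so a batch and the group cannot be told apart. Of 45101 probe sets, 64 controls, 932 with several gene symbols and 9160 with none were left out, which left 34945 for 18193 genes.

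From the deposited intensity, log2 was computed after raising signals to 100.001, 20% of the trimmed mean. Fold bounds for genes at the floor on 1 array were taken against it. A gene took the probe set with the highest mean signal, and probe sets whose IDs end in _s_at or _x_at can bind several transcripts. Members, the 100 gene lists and the alternatives were chosen with earlier results of these data known. Genes named were drawn from the 30 per direction with the largest differences among those whose probe sets, 2 or more, all passed 2-fold, the 20 per direction with 1 probe set, up to 8 per direction and the 3 brightest of each list, every member of short lists and of the Ras and liver lists, and the 6 largest per direction of each symbol family. Podxl, Msln and Wt1 are named as defining markers outside that rule. Promoter windows were matched by symbol to the RefSeq table of GRCm38.p6, and 8558 measured genes had one. The scripts were tested on simulated data. Python 3.11.15, numpy 2.4.6, pandas 2.3.3, scipy 1.17.1 and matplotlib 3.10.9 were used. The number of arrays, 1 a group, limits the precision, so no test across samples was made. Alternatives changed the floor, the pseudocount, the summary over probe sets, the probe sets used, the normalization and the filter on dim genes.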

Additional observations from a re-analysis of the deposited data

How the results depend on the processing

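No paired analysis was possible because each group holds 1 array and the labels give no replicate numbers. The 222 higher genes became 137 when a pseudocount replaced the floor, and the 671 lower genes became 436 with the mean over probe sets, while the other alternatives kept each count within 1.5 times. The share of called genes whose further probe sets all passed 2-fold the same way was 57.4% among genes above the floor on both arrays, against 43.8%. Of 788 medians of 99 lists under 8 alternatives, 755 lay within 0.25 of the reported one, a size chosen after seeing the data, and the others were in 16 lists. Of all 788, 43 changed sign. Ras exchange factors had a median of -0.051 when the floor was lowered to 10%, against 0.25. Secreted liver proteins had 0.018 among genes above the floor on both arrays, against 0.83, and interferon GTPases -1.03 when the floor was raised to 40%, against -1.82. These settings also change which genes are measured, and the cause was not tested. Higher genes made up 24.9% of all calls, and 21.1 to 27.1% across the alternatives. Signals near the floor, where probe sets agree least, limit what can be said of dim genes.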

Other observations

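Genes that were lower in H-RasV12 cells often had a lower neighbour. Among 10433 pairs of measured genes that follow each other on a chromosome in the RefSeq order of GRCm38.p6, 90 were both lower, 7 both higher and 15 opposite. Of the 1339 neighbours of lower genes 13.4% were lower, against 6.41% of all genes, and of the 442 neighbours of higher genes 3.17% were higher, against 2.12%. Some of these pairs are members of 1 family, such as Col6a2 and Col6a1, Adamts1 and Adamts5, and Ccl2 and Ccl7, and whether their probe sets bind each other's transcripts was not tested. Higher pairs included Krt8 with Krt18, Nefl with Nefm, and Ereg with Btc. Cdh3 and Cdh1, which are neighbours, lay on opposite sides (-1.53 and 1.18).

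A cluster of tripartite motif genes, several of which encode antiviral factors, held 6 of the lower genes. Of 33 measured Trim genes 6 were lower, and these 6 follow each other on the chromosome. Trim34a had a signal of 71.0 in H-RasV12 cells and 315.2 in non-transformed cells, Trim12c 91.4 in H-RasV12 cells and 302.7 in non-transformed cells and Trim30d 56.7 in H-RasV12 cells and 299.4 in non-transformed cells. Trim6, Trim12a and Trim30a had 219.7, 208.0 and 204.6 in non-transformed cells and were below the floor in H-RasV12 cells. All 6 passed the filter only through the non-transformed array, so their direction was fixed by it, and whether the probe sets of these close paralogs bind each other's transcripts was not tested.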
